A study of Homo sapiens with 28 samples.

Results

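The genes described here are 5 protein-coding genes of the nucleolus: NCL (ENSG00000115053), FBL (ENSG00000105202), NOP56 (ENSG00000101361), NOP58 (ENSG00000055044) and DKC1 (ENSG00000130826). They were chosen by gene identifier, 5 of the 34139 identifiers in the deposited read table. The rule holds no measured value, but it was set with earlier results of these data known. NCL encodes nucleolin, an abundant nucleolar RNA-binding protein that takes part in ribosomal RNA transcription and processing. FBL encodes fibrillarin, the methyltransferase of the box C/D small nucleolar ribonucleoprotein, and NOP56 and NOP58 encode scaffold proteins of the same particle. DKC1 encodes dyskerin, the pseudouridine synthase of the box H/ACA particle, which is also a component of telomerase.

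Small nucleolar RNAs (snoRNAs) guide the chemical modification of ribosomal RNA. In human cells most of them are released from the introns of host genes after splicing, so a host transcript gives a spliced messenger RNA from its exons and snoRNAs from its introns. Box C/D snoRNAs guide methylation of the ribose and box H/ACA snoRNAs guide the conversion of uridine to pseudouridine.

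The study labelled RNA of wild-type HEK293T cells, a line derived from human embryonic kidney, with the uridine analogue 4-thiouridine (s4U) and sequenced total RNA after a chemical step that makes s4U read as cytosine, so that newly made RNA carries T-to-C mismatches. Cells received s4U at 100 µM for 2 h or no s4U. The 3 chemistries were oxidation with sodium periodate and trifluoroethylamine at pH 5.2 (TL, for TimeLapse), alkylation with iodoacetamide (SLAM) and osmium tetroxide with ammonia (TUC), and each was run with a common handling of the RNA, called drop-out in the labels (DO here), and with an improved handling meant to limit the loss of labelled RNA (IH here). Each chemistry and handling had 2 libraries with s4U and 1 without, which gives 18 libraries in 12 groups, 12 of them with s4U and 6 without. All groups are labelled as wild type and received no agent other than s4U, and all came from this 1 line. The labels do not say whether the 2 libraries of a group, or the 2 handlings, came from separate cultures, so the p-values measure the spread between these libraries, which may be technical. Each group without s4U held 1 library and adds nothing to that spread. The SE and p-values of comparisons without s4U therefore rest on the spread between the s4U duplicates. The other 10 samples of the series were not analysed here.

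The libraries held 1935777 to 9962345 reads, aligned with HISAT-3N unless another aligner is named. Of these, 9.69% to 29.8% were assigned to no gene and 7.16% to 16.1% to several genes. Over all genes, the median share of exonic reads bearing 1 or more T-to-C mismatches (the converted share) in s4U libraries was 13.8% with DO and 25.9% with IH, and that of intronic reads was 30.6% and 75.0%. Intronic reads of all genes covered a median of 24.3 T positions per read with DO and 41.7 with IH. Whether this difference lay in the length of the reads or in the sequence they covered was not tested. The part of this difference in the shares below was not tested. Markers of HEK293T or of other cell types were not looked up, because the read table names genes by identifier and the reference used here does not pair identifiers with symbols.

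The label of these genes as snoRNA hosts was borne out for 4 of the 5. In the RefSeq annotation of GRCh38.p14, NCL lies at chr2:231453531-231464484 and spans SNORA75, SNORD20 and SNORD82. NOP56, at chr20:2652632-2658393, spans SNORD110, SNORA51, SNORD86, SNORD56, SNORD57 and the microRNA gene MIR1292. NOP58, at chr2:202265763-202303661, spans SNORD70, SNORD70B, SNORD11B and SNORD11. DKC1, at chrX:154762864-154777689, spans SNORA36A, SNORA56 and MIR664B, the last lying within SNORA36A. FBL, at chr19:39834458-39846379, spans no snoRNA or microRNA gene. The inner genes are short, from 61 to 137 bases, in hosts of 5762 to 37899 bases. The box H/ACA enzyme gene DKC1 spans box H/ACA snoRNAs alone, NOP58 spans box C/D snoRNAs alone, and NCL and NOP56 span both kinds, by the SNORA and SNORD names.

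The 2 microRNA genes inside these hosts give the mature sequences below, from RefSeq and in the build GRCh38.p14, all on the plus strand. They are shown because they are the inner RNAs of NOP56 and DKC1 whose sequence the reference used here holds, and the capitals mark the seed, bases 2 to 8.
hsa-miR-1292-5p: uGGGAACGgguuccggcagacgcug
hsa-miR-1292-3p: uCGCGCCCcggcucccguuc
hsa-miR-664b-5p: uGGGCUAAgggagaugauugggua
hsa-miR-664b-3p: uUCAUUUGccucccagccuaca
No seed is shared between them. The positions are chr20:2652779-2652803 and chr20:2652819-2652838 for the arms of miR-1292, and chrX:154768596-154768619 and chrX:154768635-154768656 for those of miR-664b. The kit sequenced total RNA and the reads could not be tied to a mature microRNA, so no microRNA level is given.

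The levels of the spliced transcripts moved in different directions between the handlings. With IH, exonic reads of NOP58 rose from a median of 20.03 to 175 CPM (read counts scaled to library size in edgeR), NCL and DKC1 rose by 0.58 and 0.52 on the log2 scale, and FBL and NOP56 fell by 1.73 and 0.34. All 5 genes passed the test in s4U libraries, where 80.6% of all 12449 genes tested did, so the count of 5 is near the background. The median log2 difference of all genes was 0.44, which places NCL and DKC1 close to it and FBL, NOP56 and NOP58 away from it. Whether the libraries of the 2 handlings overlapped is given below for each gene and measure as a description. The share of all genes without overlap is not given, so a lack of overlap does not set these genes apart.

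Among the box C/D proteins, NOP58 had 11.3, 20.03 and 37.4 exonic CPM (lowest, median and highest of 6 libraries) with DO and s4U, against 146, 175 and 202 with IH. The 3 libraries without s4U held 14.9, 21.4 and 25.5 CPM with DO and 215, 239 and 249 with IH. Every IH library lay above every DO library, with and without s4U. The log2 difference was 3.03 (SE 0.22, adjusted p = 3.29e-11) with s4U and 3.53 (SE 0.31, adjusted p = 3.81e-09) without, from the quasi-likelihood test of edgeR, adjusted over all genes by Benjamini-Hochberg, as is every adjusted p of counts and shares below. The DO values rest on few reads, 12 to 37 per s4U library against 164 to 494 with IH.

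FBL went the other way. Its exonic CPM were 524, 546 and 666 with DO and s4U, and 146, 173 and 192 with IH. Without s4U they were 491, 498 and 505 with DO, and 139, 158 and 168 with IH. Again the handlings did not overlap, here with every DO library above every IH library. The log2 difference was -1.73 (SE 0.11, adjusted p = 7.96e-12) with s4U and -1.69 (SE 0.16, adjusted p = 8.49e-09) without.

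NOP56, the partner of NOP58 in the same particle, was lower with IH by less than FBL. Its CPM were 300, 340 and 433 with DO and s4U and 236.5, 271 and 339 with IH, so the handlings overlapped. Without s4U they were 311, 354 and 405 with DO and 261, 275 and 299 with IH, which did not overlap. The log2 difference was -0.34 (SE 0.12, adjusted p = 0.0123) with s4U. Without s4U it was -0.35 (SE 0.17, adjusted p = 0.0668) and did not pass the test, but it did under the 3 other alignments (adjusted p = 0.0173, 0.0130 and 0.0194) and when any 1 of 5 s4U libraries with DO was left out, in a range of 0.0101 to 0.164. Those 5 libraries lie outside this contrast and only share its fit. The call with s4U was lost without TL IH replicate 1 (log2 -0.29, adjusted p = 0.0547), and adjusted p ranged from 8.78e-05 to 0.0547 over its alternatives.

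NCL, the nucleolin gene, had 965, 1564 and 2291 CPM with DO and s4U and 1829, 2282 and 2974 with IH, and the handlings overlapped. Without s4U the values were 1328, 1336 and 1640 with DO and 1935, 2093 and 3018 with IH, which did not overlap. The log2 difference was 0.58 (SE 0.12, adjusted p = 1.69e-04) with s4U and 0.69 (SE 0.17, adjusted p = 0.00127) without. With s4U it was 0.32 without TL DO replicate 2 (adjusted p = 0.0215) or TUC DO replicate 2 (adjusted p = 0.0242), and over its alternatives it lay between 0.32 and 0.71 with adjusted p from 5.60e-06 to 0.0242.

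DKC1, the dyskerin gene, had 140, 163 and 200 CPM with DO and s4U and 211, 230 and 292 with IH. Without s4U it had 159, 188 and 223 with DO and 247, 267 and 384 with IH. The handlings did not overlap in either set. The log2 difference was 0.52 (SE 0.13, adjusted p = 0.00100) with s4U and 0.64 (SE 0.18, adjusted p = 0.00346) without. The call with s4U was lost without TL DO replicate 2 (0.29, adjusted p = 0.0634) or without TUC DO replicate 2 (0.31, adjusted p = 0.0540) and kept at 0.31 without SLAM DO replicate 1 (adjusted p = 0.0336), where adjusted p ranged from 7.00e-04 to 0.0634 over its alternatives.

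**Figure D1:**
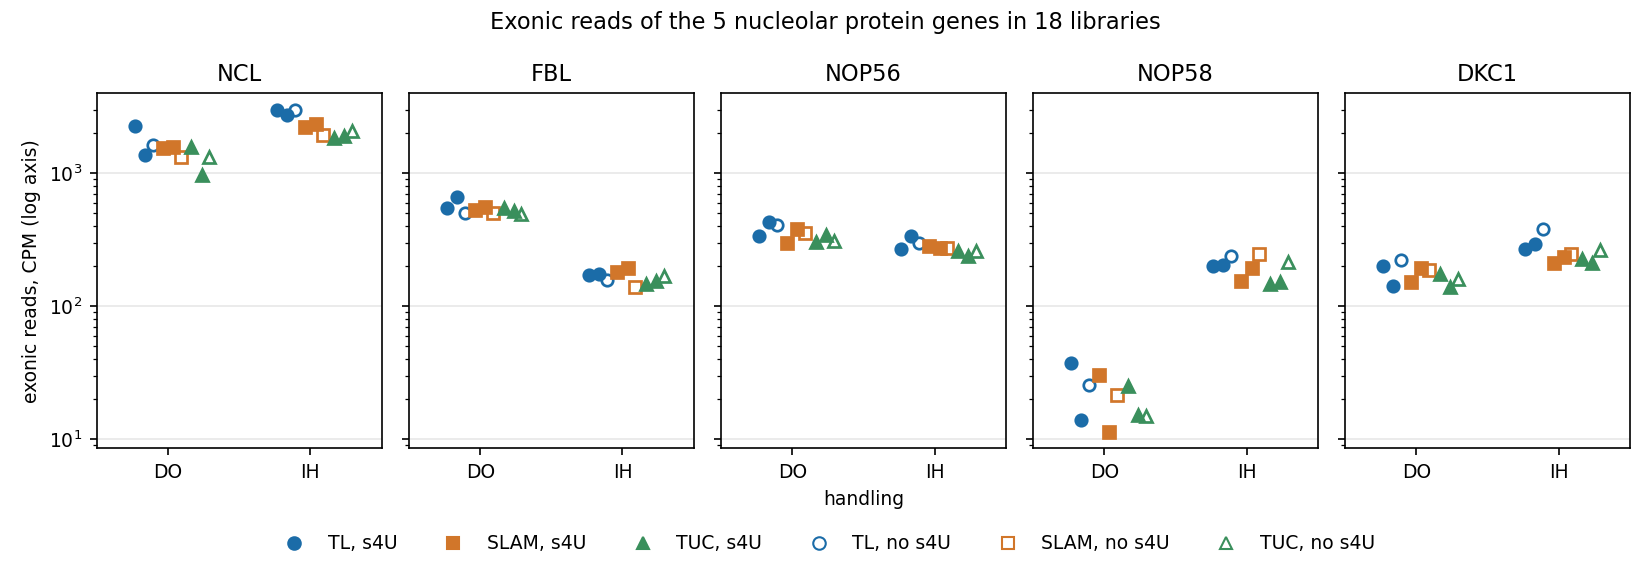
Exonic reads of each gene in CPM on a log axis, by handling, with 1 point per library, for libraries with and without s4U. NOP58 lies between 11.3 and 37.4 CPM with DO and between 146 and 249 with IH, FBL lies higher with DO, and the ranges of NOP56 with s4U overlap.

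The handling difference had a similar size in libraries that never received s4U. In these, 4 of the 5 genes passed the test, against 72.1% of all genes tested, and NOP56 passed under the 3 other alignments. Tested directly, the difference between the handling effects with and without s4U was called for 0 of 12449 genes by edgeR's quasi-likelihood test, with 914 at an unadjusted p under 0.05. The lowest adjusted p among the 5 genes was 0.823, which does not show that the effects were equal. By chemistry, the log2 difference of NOP58 with s4U was 2.96 for TL, 3.28 for SLAM and 2.86 for TUC. That of FBL was -1.81, -1.55 and -1.83, that of NOP56 -0.34, -0.31 and -0.38, that of NCL 0.64, 0.54 and 0.57, and that of DKC1 0.72, 0.35 and 0.48. Tested within single chemistries by edgeR, NOP58, FBL and NCL were called in each, where 63.1%, 63.5% and 62.8% of all genes were. NOP56 was called in none (adjusted p = 0.159, 0.195 and 0.115). DKC1 was called with TL (adjusted p = 0.00810) and not with SLAM (0.178) or TUC (0.0701). All 5 kept 1 direction in the 3 chemistries. No gene of 12449 was called for a difference in the handling effect between chemistries by the same test (389 at an unadjusted p under 0.05). In bulk libraries a level is a share of all reads, so less RNA of a gene and more RNA of other genes cannot be told apart.

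No level changed with s4U itself at these thresholds. Of the 5 genes 0 were called by edgeR with s4U against none, where 0.225% of all genes were called with IH and 0.217% with DO, and none of the 5 had an adjusted p below 0.663. With IH, the log2 difference was -0.43 (SE 0.20) for NOP58, -0.29 (SE 0.15) for DKC1, 0.13 (SE 0.14) for FBL, -0.01 (SE 0.15) for NOP56 and 0.00 (SE 0.15) for NCL. With DO it was 0.17 (SE 0.13) for FBL, 0.11 (SE 0.15) for NCL, 0.07 (SE 0.34) for NOP58, -0.02 (SE 0.15) for NOP56 and -0.17 (SE 0.16) for DKC1. Over all genes, 918 with IH and 1352 with DO had an unadjusted p under 0.05.

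Intronic reads report the unspliced transcript and the released introns from which snoRNAs are cut. Their direction depended on the scale. Scaled to the intronic reads of all genes, in s4U libraries NOP58 rose by 1.17 on the log2 scale with IH, while FBL, NOP56 and NCL fell by 2.18, 2.08 and 1.07. These are 4 of the 5 genes, against 66.0% of the 13154 genes tested, whose median was 0.30. Scaled to the exonic reads of the same libraries, the median of all genes was 2.19 and 76.6% were called, with 9352 higher and 725 lower, against 4775 higher and 3904 lower on the first scale. On this second scale NOP58, DKC1 and NCL rose by 3.09, 1.46 and 0.87, the sign of NCL and DKC1 turned, and FBL and NOP56 did not pass the test. Without s4U, on the intronic scale, the log2 difference was 2.01 (adjusted p = 4.54e-05) for NOP58, -2.01 (adjusted p = 6.00e-06) for FBL, -0.80 (adjusted p = 0.0883) for NCL and -0.15 (adjusted p = 0.756) for DKC1. On the exonic scale it was 3.95 (adjusted p = 3.20e-08) for NOP58, -0.06 (adjusted p = 0.918) for FBL, 1.15 (adjusted p = 0.0146) for NCL and 1.79 (adjusted p = 1.60e-04) for DKC1, so here too the sign of NCL and DKC1 turned. No value is given for NOP56, whose SLAM DO library without s4U had 0 intronic reads.

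NOP58 rose on both scales. Counted in CPM of the library's exonic reads, it had 6.32, 16.1 and 37.3 intronic CPM with DO and s4U, and 114, 150 and 189 with IH, which did not overlap. The log2 difference was 1.17 (SE 0.22, adjusted p = 1.70e-05) on the intronic scale and 3.09 (SE 0.32, adjusted p = 1.43e-10) on the exonic scale.

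FBL, which spans no snoRNA gene, had 18.4, 29.0 and 31.1 intronic CPM with DO and 15.8, 21.5 and 35.6 with IH, in overlapping ranges. On the intronic scale its log2 difference was -2.18 (SE 0.24, adjusted p = 1.97e-09), and on the exonic scale -0.22 (SE 0.26, adjusted p = 0.459). Over all alternatives, the exonic scale among them, it lay between -2.99 and -0.22 with adjusted p from 3.11e-22 to 0.459. The low value on the first scale is therefore relative to the intronic reads of other genes, which were more frequent with IH.

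NCL had 8.85, 16.5 and 21.2 intronic CPM with DO and 16.0, 25.8 and 55.8 with IH, with overlap. Its log2 difference was -1.07 (SE 0.25, adjusted p = 3.97e-04) on the intronic scale and 0.87 (SE 0.27, adjusted p = 0.00448) on the exonic scale. DKC1 had 6.39, 14.8 and 21.8 with DO and 26.3, 36.7 and 62.5 with IH, without overlap. Its log2 difference was -0.47 (SE 0.25, adjusted p = 0.0960) on the intronic scale and 1.46 (SE 0.28, adjusted p = 1.57e-05) on the exonic scale. On the intronic scale it passed the test with the replicate number as a block (log2 -0.60, adjusted p = 0.0354), with HISAT2 VL (log2 -0.58, adjusted p = 0.0289) and without TL DO replicate 1 (log2 -0.59, adjusted p = 0.0492) or SLAM DO replicate 2 (log2 -0.67, adjusted p = 0.0302). Its sign turned with HISAT2 and the D settings (log2 0.13, adjusted p = 0.766), and adjusted p ranged from 1.57e-05 to 0.849 over its alternatives. NOP56 had the fewest intronic reads assigned to it alone, 2 to 16 per library with DO and 4 to 20 with IH. These gave 2.07, 5.83 and 13.2 intronic CPM with DO and 2.52, 5.59 and 8.76 with IH. Over the s4U libraries NOP56 had 53 further intronic reads with DO and 29 with IH that also overlapped an inner gene and are left out. Its log2 difference was -2.08 (SE 0.52, adjusted p = 7.54e-04) on the intronic scale and -0.16 (SE 0.49, adjusted p = 0.780) on the exonic scale. By chemistry it was -2.54 with TL, -3.36 with SLAM and -0.35 with TUC on the intronic scale (adjusted p = 0.0146, 7.60e-04 and 0.784). With HISAT2 and the D settings, NCL (log2 -0.43, adjusted p = 0.320) and NOP56 (log2 -1.56, adjusted p = 0.113) lost their calls on the intronic scale. Over all alternatives, adjusted p ranged from 4.38e-07 to 0.320 for NCL and from 2.65e-06 to 0.780 for NOP56.

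The intronic share of a gene's own reads needs no scaling between libraries. This share was far higher in NOP58, the longest of the 5 hosts, than in the others. In NOP58 it was 29.4%, 43.9% and 60.0% with DO and 37.0%, 46.0% and 56.4% with IH. In NCL it was 0.559%, 0.983% and 1.67% with DO and 0.715%, 1.14% and 1.84% with IH, and in NOP56 0.680%, 1.55% and 4.20% with DO and 0.917%, 1.79% and 3.57% with IH. All 3 genes overlapped between handlings. For NOP56 this share leaves out reads that also overlapped an inner gene, 53 intronic with DO and 29 with IH, and 264 and 233 at exons.

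FBL and DKC1 had a higher intronic share with IH. In FBL it was 3.34%, 4.73% and 5.41% with DO and 8.57%, 10.3% and 19.5% with IH, without overlap. In DKC1 it was 3.17%, 9.17% and 11.1% with DO and 11.1%, 11.5% and 21.6% with IH, where the highest DO library lay just above the lowest IH library. The log2 odds ratio of intronic against exonic reads between handlings was 1.48 (SE 0.25, adjusted p = 4.07e-06) for FBL and 0.94 (SE 0.28, adjusted p = 0.00316) for DKC1. It was 0.25 (SE 0.25, adjusted p = 0.359) for NCL and 0.05 (SE 0.29, adjusted p = 0.865) for NOP58. Thus 2 of the 4 genes with enough reads passed the test, against 83.6% of the 4016 genes tested, whose median was 1.59. NOP56 fell under the minimum of 20 intronic reads per library on average. With STAR the value of FBL was 0.60 (adjusted p = 0.00575, in a range of 7.41e-07 to 0.00575), and that of DKC1 ran from 0.61 without SLAM DO replicate 2 to 1.52 with HISAT2 and the D settings (adjusted p = 0.0392 and 9.93e-06, the ends of its range). Under the other alignments NOP58 passed the test, with 0.73 for HISAT2 with the D settings, 0.66 for HISAT2 with the VL settings and 0.57 for STAR (adjusted p = 0.0217, 0.0298 and 0.0346), and adjusted p ranged from 0.0217 to 0.934 over its alternatives.

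**Figure D2:**
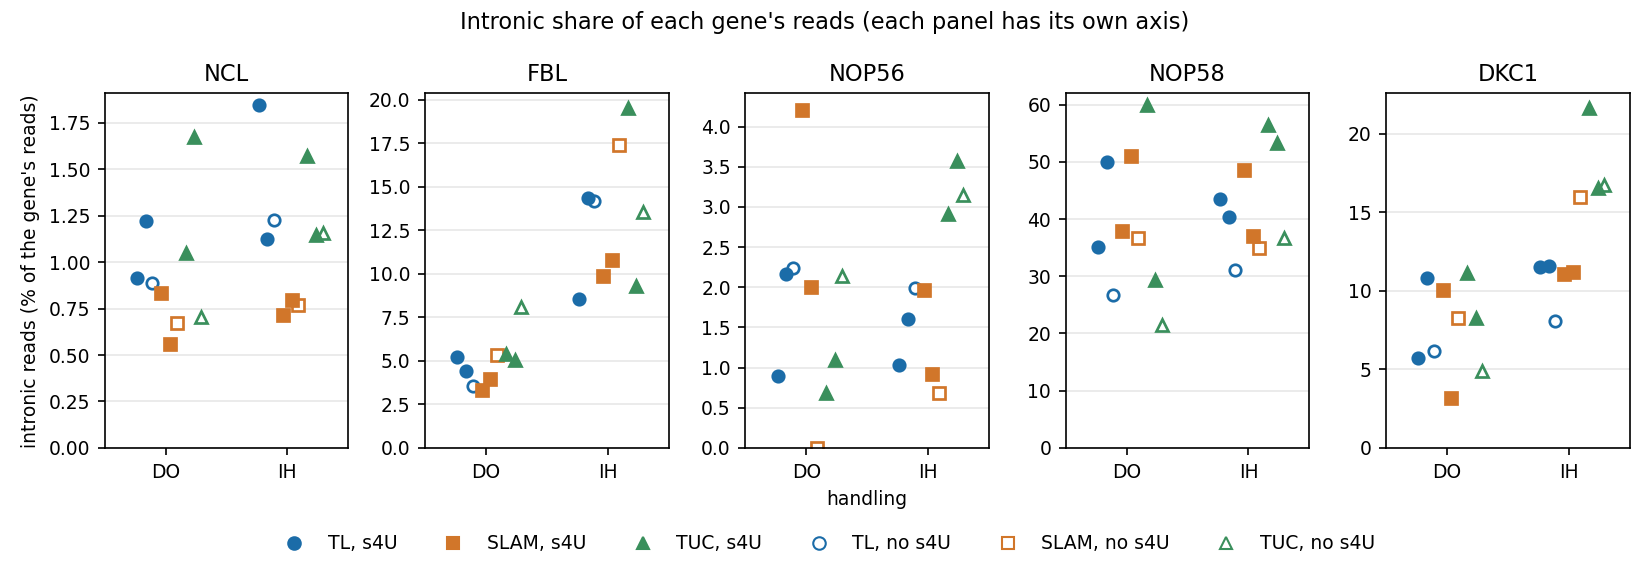
Intronic reads as a percentage of the reads of each gene, by handling, with 1 point per library and an axis of its own for each gene. FBL lies between 3.34% and 5.41% with DO and s4U and between 8.57% and 19.5% with IH, while the 2 handlings overlap in NCL, NOP56 and NOP58.

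The converted share of exonic reads reflects the part of the transcript made during the 2 h of labelling, within what the chemistry and the alignment recover. This share still holds the background seen without s4U, misses new reads without a mismatch and may include reads of unspliced transcripts. With IH it was highest for NOP56, at 42.1% ± 2.99 (SD, n = 6), and lowest for FBL, at 9.48% ± 1.92. NOP58 had 35.9% ± 3.44, DKC1 29.1% ± 5.45 and NCL 16.4% ± 1.40. The share was higher with IH than with DO for the 4 genes with at least 50 reads in each library, where 82.0% of the 1992 genes tested passed, each of them upward.

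NOP56 held 18.6%, 24.5% and 32.9% converted exonic reads with DO and 39.6%, 40.5% and 46.0% with IH, without overlap. With DO, replicate 1 held 29.3%, 32.9% and 29.8% with TL, SLAM and TUC and replicate 2 held 19.7%, 18.6% and 19.5%. The same split was seen for NCL, with 14.5%, 14.1% and 16.8% against 9.98%, 11.4% and 10.5%, and over all genes, with 15.1%, 15.9% and 17.4% against 10.4%, 11.1% and 12.5%. It was absent with SLAM for DKC1 (15.5% against 15.9%) and NOP58 (8.70% in both), and slight with TL for FBL (5.35% against 5.28%). For NOP58 with TUC it was turned, at 20.8% against 75.0%, on few reads. Without s4U the 3 libraries held 3.06%, 4.58% and 6.05% converted NOP56 reads with DO and 3.81%, 5.24% and 7.19% with IH. The log2 odds ratio of a converted read between handlings was 1.17 (SE 0.22, adjusted p = 3.01e-06), close to the median of 1.09 over all genes tested. In SLAM, TL and TUC libraries it was 1.20, 1.08 and 1.23.

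DKC1 held 9.85%, 15.7% and 23.8% with DO and 22.9%, 29.9% and 36.9% with IH, with a narrow overlap. Without s4U it held 0.692%, 1.20% and 2.56% with DO and 2.28%, 2.77% and 3.01% with IH. Between handlings its log2 odds ratio was 1.13 (SE 0.26, adjusted p = 9.47e-05). By chemistry it was 1.13 with TL, 0.91 with SLAM and 1.34 with TUC (adjusted p = 0.0338, 0.0805 and 0.0118), and SLAM was not called.

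FBL held 1.69%, 5.63% and 6.91% with DO and 6.25%, 10.3% and 11.5% with IH, with overlap. Without s4U it held 3.31%, 3.68% and 5.20% with DO and 1.86%, 2.89% and 3.14% with IH. With DO, therefore, the range with s4U overlapped the range without it, and with IH it did not. The log2 odds ratio between handlings was 0.97 (SE 0.26, adjusted p = 5.98e-04). With at least 2 T-to-C mismatches per converted read it was 1.62 (adjusted p = 6.23e-04), and adjusted p ranged from 8.70e-06 to 0.00839 over its alternatives. By chemistry it was 1.04 with TL, 0.23 with SLAM and 1.62 with TUC (adjusted p = 0.0393, 0.661 and 0.00276), and SLAM was not called.

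NCL had the smallest difference between handlings of the 4, with 9.98%, 12.8% and 16.8% with DO and 14.6%, 16.5% and 18.8% with IH, in overlapping ranges. Without s4U it held 2.23%, 2.69% and 2.89% with DO and 2.58%, 2.70% and 3.46% with IH. Its log2 odds ratio was 0.42 (SE 0.17, adjusted p = 0.0186), under the median of 1.09 over all genes tested, and it was 0.42, 0.44 and 0.39 with TL, SLAM and TUC, none of them called alone (adjusted p = 0.211, 0.184 and 0.234). This call was lost when TL DO replicate 2, TL IH replicate 1, TUC DO replicate 2 or TUC IH replicate 1 was left out (adjusted p = 0.0714, 0.0653, 0.104 and 0.0714) and when 2 mismatches were required (adjusted p = 0.0523), in a range of 0.00112 to 0.104 over its alternatives.

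NOP58 had too few exonic reads with DO for that test. Its share was 8.70%, 18.1% and 75.0% with DO and 32.3%, 35.3% and 41.4% with IH, and the highest DO value, in TUC DO replicate 2, was 9 of 12 reads. Pooled over the 6 libraries, 28 of 132 reads were converted with DO, or 21.2% (95% Wilson interval 15.1% to 28.9%), and 701 of 1925 with IH, or 36.4% (34.3% to 38.6%). These intervals cover counting error only. Without s4U it held 0%, 0% and 3.03% with DO and 2.49%, 3.97% and 6.53% with IH, where the 63 DO reads held 1 converted read. With a minimum of 5 reads in each library, the log2 odds ratio was 1.11 (SE 0.42, adjusted p = 0.0224), and 51.9% of 7472 genes were called at this minimum, as were all 5 of these genes. The call of NCL at this minimum was lost in 7 of 12 fits with 1 library left out (adjusted p from 0.00452 to 0.135). For NOP58 the direction was not the same in each chemistry, with 1.21 for TL, 2.25 for SLAM and -0.14 for TUC, though edgeR's test of a difference between chemistries called 0 of 7472 genes (180 at an unadjusted p under 0.05). Without TUC DO replicate 1 the log2 odds ratio of NOP58 was 0.41 (adjusted p = 0.467), the call was also lost without TL IH replicate 1 (adjusted p = 0.0517) or TUC IH replicate 1 (adjusted p = 0.0535), and adjusted p ranged from 0.00220 to 0.467.

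**Figure D3:**
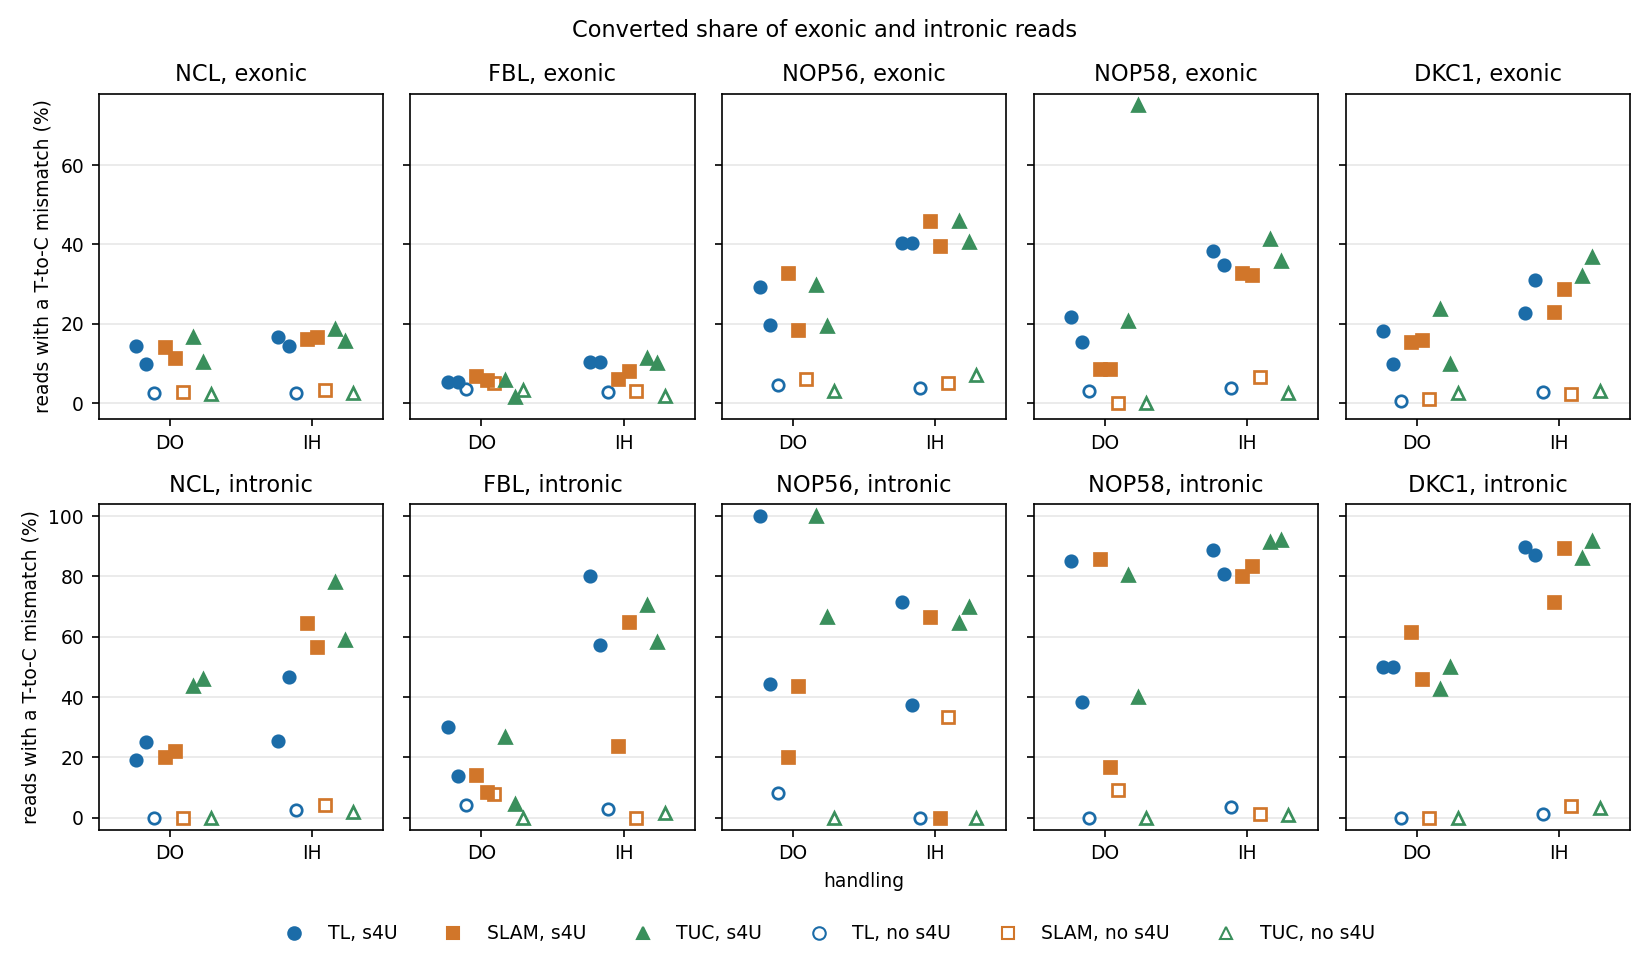
Percentage of converted reads, those bearing 1 or more T-to-C mismatches, for exonic reads in the upper panels and intronic reads in the lower panels, by handling, with 1 point per library with or without s4U. NOP56 exonic reads lie between 18.6% and 32.9% with DO and between 39.6% and 46.0% with IH, and the NOP58 point at 75.0% with DO is 9 of 12 reads.

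The order of the 5 genes by exonic converted share in the 6 IH libraries was NOP56, NOP58, DKC1, NCL and FBL. Over the 10 pairs, 9 differed in the same direction in 6 of 6 libraries. An exact two-sided sign-flip permutation test, paired within library, reached p = 0.03125 in these 9 pairs, which 6 libraries cannot go below. After adjustment over the 10 pairs it was 0.0347. The share of pairs of other genes that pass this test was not computed, so the count of 9 does not set these genes apart. The neighbours in that order differed by 6.21 ± 3.74 percentage points for NOP56 minus NOP58 (SD, n = 6), 6.80 ± 5.87 for NOP58 minus DKC1, -12.7 ± 5.78 for NCL minus DKC1 and 6.94 ± 2.12 for NCL minus FBL. NOP58 and DKC1 were the 1 pair whose order held in 5 of 6 libraries, and the exact test gave p = 0.0625 for it, the same after adjustment. The sign of all 10 mean differences was kept under the other alignments, the other measures of conversion and without each library in turn, where 5 libraries cannot give a p under 0.0625.

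A longer stretch of T positions gives a read more chances to convert, so the same order was read per T position. In IH libraries the median number of T-to-C mismatches per 100 exonic T positions was 3.47 for NOP56, 2.74 for NOP58, 2.01 for DKC1, 1.40 for NCL and 0.607 for FBL. The exonic reads of these genes covered medians of 32.5, 32.9, 31.3, 26.9 and 33.4 T positions. FBL had the lowest median conversion per T position, and its reads covered a median of 33.4 T positions, against 32.9 for NOP58. The part of T content in the order of the converted shares was not tested. With mismatches counted per T position all 10 pairs passed the exact test, as they did with HISAT2 and the D settings. Of the 10, 9 passed with HISAT2 VL and with STAR, 8 with at least 2 mismatches per read and 7 after subtraction of the unlabelled library.

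The chemistries were compared within IH. For NOP56 the mean converted share of 2 libraries was 40.4% with TL, 42.8% with SLAM and 43.3% with TUC. For NCL it was 15.6%, 16.5% and 17.2%, for FBL 10.4%, 7.21% and 10.9%, for DKC1 27.0%, 25.9% and 34.5%, and for NOP58 36.6%, 32.6% and 38.6%. The 3 pairwise contrasts called 0% of 1992 genes by edgeR's quasi-likelihood test, with 80, 76 and 41 genes at an unadjusted p under 0.05 for TUC over SLAM, TUC over TL and TL over SLAM. For TUC over SLAM, the log2 odds ratio was 0.63 for FBL, 0.58 for DKC1, 0.07 for NCL and 0.03 for NOP56. With 2 libraries per chemistry, a missed threshold does not show that the chemistries converted these transcripts alike.

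Intronic reads were converted more often than exonic reads of the same gene. In IH libraries the intronic share was 80.0%, 86.1% and 92.1% for NOP58, 71.4%, 88.3% and 91.7% for DKC1, 23.8%, 61.6% and 80.0% for FBL and 25.4%, 57.7% and 78.1% for NCL. The log2 odds ratio of conversion of intronic over exonic reads within IH was 4.00 (SE 0.27, adjusted p = 1.27e-47) for DKC1, 3.92 (SE 0.31, adjusted p = 3.68e-37) for FBL and 3.57 (SE 0.21, adjusted p = 3.96e-61) for NOP58. These 3 genes had enough reads and all passed, where 99.3% of 2945 genes did with a median of 3.63. With a minimum of 5 reads NCL passed too, at 2.57 (SE 0.23, adjusted p = 3.11e-22), where 95.4% of 8687 genes did with a median of 3.28. NOP56 could not be tested with 4 to 20 intronic reads per IH library, and its share was 0%, 65.7% and 71.4%. Intronic reads also covered more T positions, with IH medians of 41.3, 44.7, 39.2 and 34.5 for NOP58, DKC1, FBL and NCL. Their exonic reads covered 32.9, 31.3, 33.4 and 26.9. Median mismatches per 100 T positions were 8.17, 8.30, 6.18 and 4.89 in introns and 2.74, 2.01, 0.607 and 1.40 in exons. The part of T content in the odds ratios was not tested.

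With DO the intronic share was 16.7%, 60.3% and 85.7% for NOP58, 42.9%, 50.0% and 61.5% for DKC1, 4.55%, 14.0% and 30.0% for FBL and 19.0%, 23.6% and 46.2% for NCL. The handlings did not overlap for DKC1 and overlapped for the other 3. Pooled over 6 libraries, 161 of 254 intronic FBL reads were converted with IH, or 63.4% (95% Wilson interval 57.3% to 69.1%), and 28 of 172 with DO, or 16.3% (11.5% to 22.5%). Without s4U the pooled intronic share of FBL was 3.70% (1.27% to 10.3%) with DO and 2.06% (0.882% to 4.73%) with IH. These intervals cover counting error only.

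None of the 5 genes had 20 intronic reads in every s4U library, so the handling test on intronic reads used a minimum of 5. At this minimum 80.0% of 3667 genes were called, with a median log2 odds ratio of 2.01, and the 4 genes that could be tested all rose. The log2 odds ratio was 3.04 (SE 0.56, adjusted p = 4.03e-06) for FBL, 2.70 (SE 0.55, adjusted p = 1.93e-05) for DKC1, 2.04 (SE 0.54, adjusted p = 7.38e-04) for NOP58 and 1.59 (SE 0.56, adjusted p = 0.00895) for NCL. That of NOP58 lost its call without SLAM DO replicate 2 (1.08, adjusted p = 0.142, in a range of 4.23e-06 to 0.142). Intronic reads of these genes covered medians of 32.8 to 39.7 T positions with DO and 34.5 to 44.7 with IH, a smaller gap than over all genes, and its part in the result was not tested.

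Reads assigned to the short genes inside the hosts went the other way from NOP58, NCL and DKC1 exons. At the level of exons, 897 reads were assigned to an inner gene and all 897 were also placed in its host at the level of genes. The number of inner identifiers in the read table, 3 in NCL, 6 in NOP56, 4 in NOP58, 3 in DKC1 and 0 in FBL, equals the number of RefSeq genes inside each, but the identifiers are not paired with symbols here, so reads are summed per host. Reads summed over the 6 s4U libraries numbered 530 with DO and 87 with IH.

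The inner genes of NOP56 had 12.6, 34.8 and 54.6 reads in CPM of exonic reads with DO and s4U and 2.82, 4.02 and 6.24 with IH, which did not overlap. Without s4U they had 17.6, 48.5 and 50.2 with DO and 4.91, 5.63 and 7.40 with IH. Their log2 difference was -2.76 (SE 0.28, adjusted p = 8.17e-09) with s4U and -2.51 (SE 0.36, adjusted p = 2.82e-06) without.

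The inner genes of NOP58 had 10.4, 19.6 and 37.4 CPM with DO and s4U and 0, 0.549 and 8.81 with IH. Those of NCL had 2.53, 5.10 and 18.4 with DO and 0, 0.894 and 1.26 with IH. Those of DKC1 had 0, 12.1 and 28.9 with DO and 0, 0.219 and 3.14 with IH. The handlings overlapped for DKC1, where 1 DO library had no read, and not for NOP58 and NCL. Adjusted p was 1.19e-06 for NOP58, 2.41e-04 for NCL and 4.21e-05 for DKC1 with s4U. No fold is given for these 3 because 2 libraries of NOP58, 2 of NCL and 4 of DKC1 had 0 reads. Without s4U adjusted p was 0.0280, 0.0117 and 0.0674. All 4 hosts thus passed with s4U, against 80.4% of the 14454 features tested, and 3 without it, against 71.7%. The missed call of DKC1 without s4U depended on the setting. It passed under 5 of 14 alternatives, with no filter on low counts (adjusted p = 0.0135) and without TL DO replicate 1 (0.0231), TL DO replicate 2 (0.0247), TUC DO replicate 1 (0.0454) or TUC DO replicate 2 (0.0440), all libraries with s4U that share the fit, in a range of 0.0135 to 0.0808. For DKC1 both TL IH libraries with s4U, and so 1 of the 12 groups, held 0 reads, as did TL DO replicate 1. Without TL DO replicate 2 the TL DO group of DKC1 held 0 reads as well, and its call with s4U was lost (adjusted p = 1.0, in a range of 1.35e-12 to 1.0). For NCL the SLAM IH library without s4U, 1 group of the test without s4U, held 0 reads.

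Per 100 exonic reads of the host, summed over the s4U libraries, reads of inner genes numbered 117 with DO and 1.04 with IH for NOP58, 10.2 and 1.67 for NOP56, 6.86 and 0.262 for DKC1 and 0.626 and 0.0388 for NCL. Single libraries moved some of these values by over 1.5 times. SLAM DO replicate 2 held 76 of the 154 inner reads of NOP58 with DO, beside 23 exonic reads, and 35 of the 64 of NCL, and without it the values were 71.6 and 0.413. SLAM IH replicate 2 held 14 of the 20 inner reads of NOP58 with IH and 5 of the 7 of DKC1, and without it the values were 0.372 and 0.0871. For each of these hosts the value with DO was above the value with IH when any 1 s4U library was left out. For NOP58, inner reads outnumbered exonic reads in SLAM DO replicate 2 and in TUC DO replicate 2 (15 against 12), and not in the other 4 s4U libraries with DO. Without s4U the value for NOP58 with DO was 41.3. Few of the inner reads were converted, 32 of 530 with DO and s4U, or 6.04% (95% Wilson interval 4.31% to 8.40%), and 4 of 87 with IH, or 4.60% (1.80% to 11.2%). Without s4U it was 1 of 193 with DO, or 0.518% (0.0915% to 2.88%), and 1 of 87 with IH, or 1.15% (0.203% to 6.23%). These intervals pool hosts and libraries and cover counting error only, not the spread between libraries. SLAM DO replicate 2 also held 111 of the 235 inner reads of NOP56 with DO and s4U. Inner reads covered means of 21.5 T positions with DO and 17.9 with IH, fewer than exonic reads of the hosts.

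**Figure D4:**
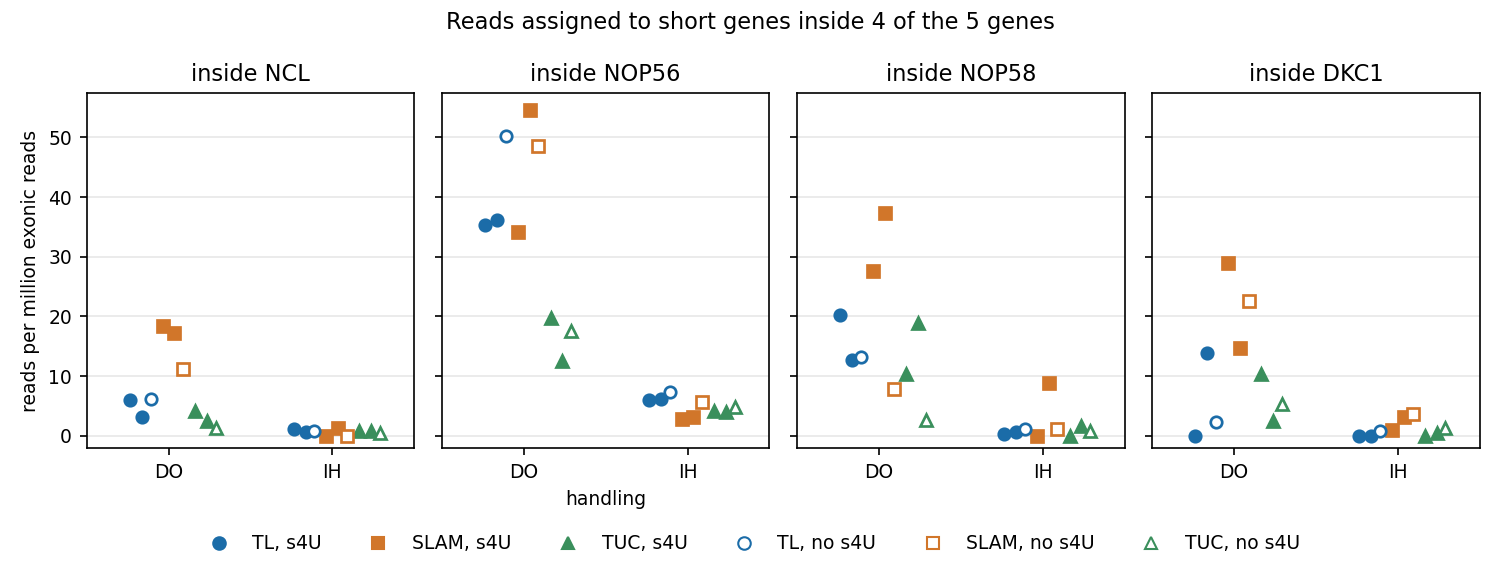
Reads assigned to the short genes inside NCL, NOP56, NOP58 and DKC1, in CPM of the exonic reads of the library, by handling, with 1 point per library with or without s4U. Inside NOP56 the s4U libraries lie between 12.6 and 54.6 with DO and between 2.82 and 6.24 with IH.

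Other reads overlapped an inner gene and its host but were assigned to a host exon or to no exon. They carry both names at the level of genes and are in none of the host counts above. They were most frequent in NOP56, where 264 such reads were assigned to a NOP56 exon with DO and s4U and 233 with IH. Of these, 72 and 130 were converted, or 27.3% (22.3% to 32.9%) and 55.8% (49.4% to 62.0%). The pooled share was lower in the inner reads of the same gene, at 7.23% (4.57% to 11.3%) and 4.00% (1.10% to 13.5%). Here too the intervals cover counting error only. In NOP56, reads that overlapped both genes and lay in introns numbered 53 with DO and s4U and 29 with IH. Of these, 13 and 19 were converted. The intronic counts of NOP56 above held 43 reads with DO and 62 with IH, so with DO they left out more than they held. In NOP58, 14 reads of this kind with DO and 65 with IH lay in introns, and 9 and 60 of them were converted.

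The alignment changed how much conversion was recorded. Over the 12 s4U libraries, HISAT2 with the D settings gave an exonic converted share that differed from that of HISAT-3N by a mean of -11.4 ± 9.54 percentage points for NOP58 (SD, n = 12), -10.2 ± 4.05 for NOP56, -7.95 ± 3.74 for DKC1 and -3.34 ± 1.17 for NCL. It was lower in all 12 libraries for NOP56, DKC1 and NCL and in 11 for NOP58 and FBL. With STAR the mean difference was -8.57 ± 10.1 points for NOP58, -5.93 ± 2.18 for NOP56, -4.52 ± 2.02 for DKC1, -0.51 ± 0.36 for NCL and 0.40 ± 0.58 for FBL. HISAT2 with the VL settings gave a higher share in 12 of 12 libraries for NCL and FBL, by 4.76 ± 1.55 and 4.22 ± 1.59 points. The 2 genes with the lowest shares were thus the 2 that gained with the VL settings, and the 3 with the highest shares lost most with the D settings. These alternative alignments also assigned more exonic reads to the genes, from 6.89% more for FBL with STAR to 50.5% more for NOP58 with the VL settings. In IH libraries NOP56 kept the highest mean share under each, at 29.2%, 40.7% and 35.2% for HISAT2 D, HISAT2 VL and STAR.

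Among themselves the 5 genes split into those higher and those lower with IH. Over the 18 libraries, Pearson's r of log2 CPM was -0.96 between FBL and NOP58, 0.77 between FBL and NOP56, 0.86 between NCL and DKC1 and -0.74 between NOP56 and NOP58. These are descriptions, since the libraries share the handling split. Among 3446 genes with at least 100 exonic reads per library on average, the identifiers most like the mean of the 5 genes were ENSG00000092853 (r = 0.965) and ENSG00000163166 (r = 0.961). Against that same mean, which includes the gene itself, NCL had r = 0.956, DKC1 0.918, NOP58 0.896, NOP56 -0.453 and FBL -0.784.

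Degradation rate constants in the authors' deposited table cover 4 of the 5 genes by symbol, without NOP58, and NOP56 is listed in 2 of the 3 chemistries. It gives no unit for the rate constant and no error. The sign of its log2 fold change is that of IH over DO, found from the rate constants it lists, with a largest gap of 0.352 to their log2 ratio. In the authors' deposited table, adjusted p was under 0.05 for 50.3% of 1600 transcripts with SLAM, 48.6% of 2262 with TUC and 53.3% of 2209 with TimeLapse. Of the genes here, 1 of 4, 2 of 3 and 3 of 4 were under it.

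NOP56 had the highest rate constant of the 4 in the authors' deposited table. With SLAM it was 0.170 with DO and 0.337 with IH, and with TimeLapse 0.204 and 0.350. The IH values lay at percentiles 96.8 and 95.4 of all transcripts listed for the chemistry. The table's log2 fold change was 1.0 (adjusted p = 0.00155 in the authors' deposited table) and 0.79 (adjusted p = 0.00394 there). DKC1 had IH values of 0.125, 0.174 and 0.145 with SLAM, TUC and TimeLapse, against medians of 0.0833, 0.0998 and 0.102 over all listed transcripts, and DO values of 0.0718, 0.0722 and 0.0597. Its log2 fold changes in that table were 0.83, 1.32 and 1.32 (adjusted p = 0.0759, 0.0142 and 0.00291 in the authors' deposited table).

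NCL was the gene whose rate constant moved least with the handling. The authors' deposited table gives it 0.0640 with DO and 0.0698 with IH for SLAM, 0.0650 and 0.0637 for TUC, and 0.0730 and 0.0776 for TimeLapse. Its log2 fold changes were 0.14, -0.02 and 0.10, at percentiles 11.4, 6.59 and 9.51 of all listed, where the medians were 1.14, 1.19 and 1.18 in the authors' deposited table. With DO, NCL stood at percentiles 74.0, 68.7 and 71.0 of the rate constants, and with IH at 40.9, 27.6 and 36.1. FBL had the lowest values of the 4, with IH values of 0.0280, 0.0383 and 0.0356 at percentiles 10.3, 9.68 and 8.96, and DO values of 0.0181, 0.0141 and 0.0159. For FBL the authors' deposited table gives log2 fold changes of 0.64, 1.48 and 1.20 and adjusted p of 0.324, 0.0202 and 0.0401.

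**Figure D5:**
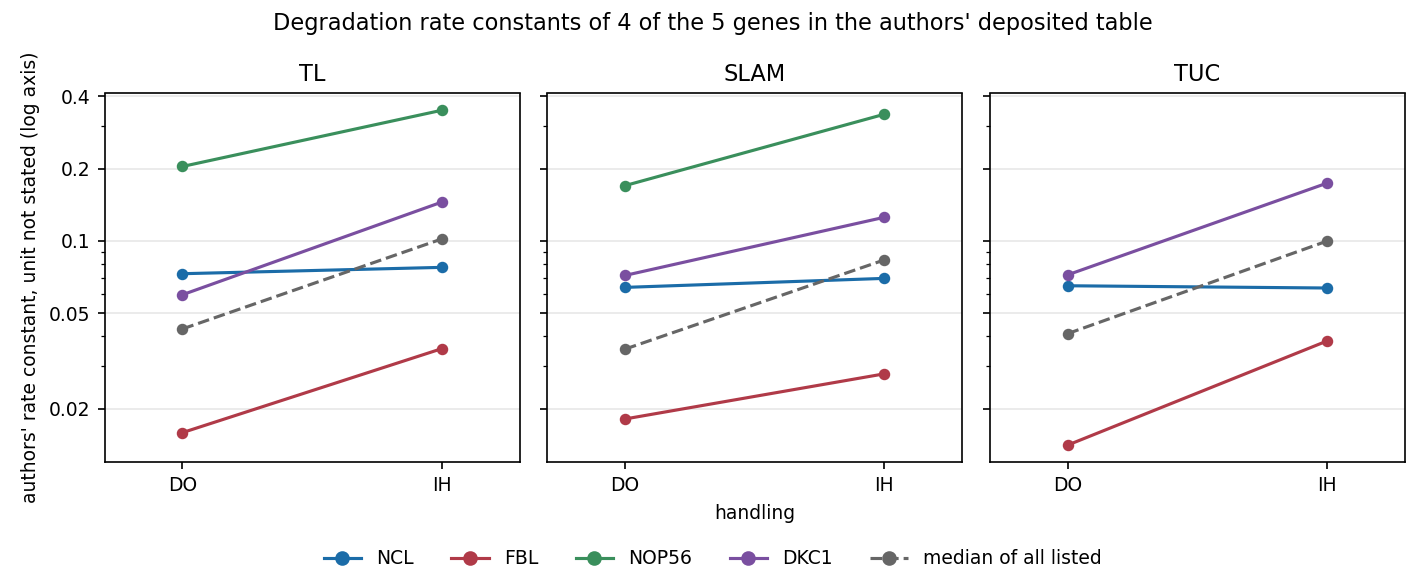
Degradation rate constants from the authors' deposited table on a log axis, for DO and IH in each of the 3 chemistries, with 1 line per gene and the median of all listed transcripts. The lines of NCL are nearly flat, NOP56 lies highest at 0.337 and 0.350 with IH, and FBL lies lowest at 0.0280 to 0.0383 with IH.

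Other genes of the snoRNA and ribosome pathways were read from the same table by symbol. Of 42 other protein genes known to host snoRNAs, the authors' deposited table lists 30 with SLAM, 31 with TUC and 30 with TimeLapse, with median IH rate constants of 0.0244, 0.0347 and 0.0360, all under the median of all transcripts. Of these, 14, 17 and 16 had a higher rate constant with IH and 2, 1 and 1 a lower one at an adjusted p under 0.05 in the authors' deposited table, where 50.3%, 48.6% and 53.3% of all listed transcripts were called, a share near that of these hosts. Of 45 genes of small subunit processing, 10, 10 and 11 were listed, with median IH rate constants of 0.136, 0.111 and 0.135, and 7, 6 and 8 were higher with IH and 0 lower, against the same 50.3%, 48.6% and 53.3%. Of 47 genes of large subunit processing, 16, 18 and 20 were listed, with medians of 0.0909, 0.106 and 0.110, and 10, 7 and 13 were higher and 0 lower, against those shares of 50.3%, 48.6% and 53.3%.

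The partners of the particles themselves were few in the authors' deposited table. Of 9 other core and assembly genes of the box C/D particle 4 were listed in each chemistry, with median IH rate constants of 0.0815, 0.0803 and 0.0744. Of 7 of the box H/ACA particle 3 were listed, with medians of 0.117, 0.121 and 0.123. NOP56 thus lay above the median of its particle's partners, and FBL under it, in each chemistry that lists them. Of 23 genes of RNA polymerase I transcription, 4, 5 and 6 were listed, with medians of 0.104, 0.119 and 0.157.

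Over all these lists, the 3 lowest mean IH rate constants in the authors' deposited table included those of RPLP2 at 0.0107 and RPL13A at 0.0187, which encode ribosomal proteins. The highest were those of EIF4A2, a translation initiation helicase, at 0.492, TAF1D, a subunit of the RNA polymerase I selectivity factor, at 0.368 and NOP2, a ribosomal RNA methyltransferase, at 0.298. EIF4A2 and TAF1D are, like NOP56, in the set of snoRNA hosts, so hosts stood at both ends of the range.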

How the data were processed

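The members and the gene lists were chosen with earlier results of these data known. The deposited read counts are whole numbers of reads per library, aligner, gene, exon-level name and intronic flag, split by how many T positions and how many T-to-C mismatches a read holds, per the file headers and the labels. The submitters' processing notes name cutadapt, HISAT2, STAR, HISAT, Picard, HTSeq, DESeq2 and GRCh38, with no versions. The rate constants, their log2 fold changes and adjusted p-values are the authors' deposited bakR values, whose version is not given in the sources used here.

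Reads were summed per gene and library in Python 3.11.15 (pandas 2.3.3). A read was counted as converted with at least 1 T-to-C mismatch. Counts and shares were tested over all genes with edgeR 4.0.16 (R 4.3.3; TMM, filterByExpr, quasi-likelihood test, Benjamini-Hochberg, adjusted p under 0.05), with group means for counts and a term per library for shares. Each SE was worked back from that test, as the absolute log2 value over the square root of its F statistic, and is approximate. Minimums were 50 exonic and 20 intronic reads. The scripts were tested on simulated data. DESeq2 1.42.0, RLE size factors, no filter, 3 other alignments, other minimums, a replicate block and leaving out each s4U library were the alternatives. Intervals are 95% Wilson intervals. The 5 genes are always named, and other genes were named by the 3 highest and 3 lowest mean rate constants and the 2 highest correlations; 1 of these genes is not reported here. Over 15 pairs of groups, deviations of same-numbered libraries in level correlated at -0.01 to 0.25, with 3 over 0.1. These correlations cannot exclude that replicate numbers pair the libraries. With DO, replicate 1 had the higher converted share of all genes in each chemistry. The main tests took the libraries as independent, and the replicate block was an alternative.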

Additional observations from a re-analysis of the deposited data

How the results depend on the processing

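Over 739 alternatives for single genes, 688 kept direction and side of the threshold, 24 lost a call, 20 gained one and 7 turned sign. The tally includes contrasts without s4U refitted with 1 s4U library left out. Such a library lies outside the contrast and enters only through the shared spread, scaling and filter. These refits could hardly turn a sign and say little of how firm the contrast is. The turned signs were those of intronic counts of NCL (0.87) and DKC1 (1.46) scaled to exonic library sizes, of DKC1 under HISAT2 with the D settings (0.13), and of the intronic to exonic ratio of NOP58 without TL DO replicate 1 (-0.13), SLAM DO replicate 1 (-0.07), SLAM IH replicate 1 (-0.05) or TUC DO replicate 2 (-0.12), in a range of -0.13 to 0.49. The cause was not tested, except that the scaling is itself the change for the first pair. Under other minimums, which change how many genes are tested, counts over all genes moved. With minimums doubled, 1525 genes were called for the intronic to exonic ratio, 805 for the exonic and 139 for the intronic converted share, and 1118 for intronic against exonic reads. With at least 5 reads these shares gave 3877, 2935 and 8291 calls, and HISAT2 with the D settings gave 202 for the intronic share. For s4U against none with IH, 28 calls became 50 without a filter, 102 and 16 with HISAT2 D and VL, 8 with STAR and 15 to 57 without 1 library. With DO, 27 became 53 with DESeq2, 97 without a filter, 90 with HISAT2 D and 17 to 208 without 1 library. For chemistries, 0 calls became 2 with HISAT2 VL. For the order of the 5 genes, 0 of 10 pairs could be called without 1 library.

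The libraries shared only replicate numbers, not a known pairing. With the number as a replicate block, calls were 9583 for exonic and 7828 for intronic counts, 3389 for the ratio, 1707 and 609 for the exonic and intronic shares, 2923 for intronic against exonic reads and 1 for chemistries, and intronic DKC1 gained a call (-0.60, adjusted p = 0.0354). The block moved no other count by over 1.5 times. Depth limits NOP58 with DO (12 to 37 exonic reads per s4U library), intronic NOP56 and the inner genes.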
